A study of Mus musculus with 12 samples.

Results

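The genes that remove and read N6-methyladenosine (m6A), the commonest internal mark of messenger RNA, were followed in sorted islet cells of the NOD strain, in which females become diabetic through autoimmunity. The set comprised the erasers Fto and Alkbh5 and the readers Ythdf1, Ythdf2, Ythdf3, Ythdc1, Ythdc2, Igf2bp1, Igf2bp2 and Igf2bp3. They were picked by symbol, with earlier results of these data known, and make up 10 of the 52962 genes in the count table, each matching a single Ensembl identifier. The 12 samples were β-cells and non-β-cells of female NOD mice at 4 and at 8 weeks of age, with 3 replicates in each of the 4 groups. Per the study's methods, islets were cultured overnight, dispersed, and sorted by endogenous fluorescence after CD45-positive (leukocyte) cells were gated out, and each replicate pooled 3 mice. The labels give no treatment, and no diabetes-resistant strain is among these 12 samples, so that age and the stage of islet inflammation cannot be told apart here.

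m6A is laid down in the nucleus by the METTL3-METTL14 complex and can be removed by either of a pair of dioxygenases, FTO and ALKBH5. Its effect on a transcript depends on the protein that binds it. The cytoplasmic YTHDF proteins are best known for coupling marked transcripts to deadenylation and decay, and YTHDF1 and YTHDF3 have also been linked to translation. YTHDC1 acts in the nucleus on splicing and export, YTHDC2 is an RNA helicase known mainly from meiosis, and the IGF2BP proteins stabilise the messages they bind. In β-cells the m6A pathway is known for its part in maintaining insulin secretion and identity genes.

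The sort was checked against hormone transcripts. As library-scaled counts (CPM, with TMM scaling between samples), Ins2, which encodes insulin, lay between 24950 and 67350 in the 6 β-cell samples and between 409.2 and 1687 in the 6 non-β-cell samples. Gcg, which encodes glucagon, lay between 102900 and 132600 CPM in the non-β fraction and between 1413 and 9039 CPM in β-cells, and Ptprc, which encodes CD45, stayed at or below 0.789 CPM in every sample. Total estimated counts ran from 13755106 to 27040652 per sample, so that 1 CPM stood for 13.4 to 26.5 counts. The 2 samples numbered 3 at 4 weeks stood apart from the other samples of their groups. On the third principal component they lay at 62.9 in β-cells, against 6.72 and 5.87, and at 32.7 in the non-β fraction, against -17.5 and -56.4. The β-cell sample numbered 3 was the lowest of its group for 7 of the 8 members that could be tested, and the non-β-cell sample numbered 3 for 5 of 8. Over all 15598 tested genes those samples were the lowest of their group for 39.4% and 38.4%, and the highest for 44.6% and 39.7%.

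Of the 10 members, 8 passed the filter of more than 1 CPM in at least 3 samples, and Igf2bp1 and Igf2bp3 did not. The 8 were Fto (chr8:91313525-91668439), Alkbh5 (chr11:60536381-60558512), Ythdf1 (chr2:180904377-180920949), Ythdf2 (chr4:132184912-132212303), Ythdf3 (chr3:16183212-16217037), Ythdc1 (chr5:86804221-86836659), Ythdc2 (chr18:44827746-44889724) and Igf2bp2 (chr16:22059009-22163299) on build GRCm38. Their values are estimated counts of annotated transcripts, summed to genes. The levels differed widely between members. Per kilobase of the longest protein-coding transcript, Alkbh5 was the highest member in β-cells at 4 weeks, at 41.8 ± 7.34 CPM per kilobase (SD, n = 3), followed by Ythdc1 at 25.8 ± 3.32 and Ythdf1 at 20.8 ± 0.670. Ythdf3 at 13.7, Fto at 12.3 and Igf2bp2 at 10.4 CPM per kilobase overlapped in neighbouring ranks, and Ythdf2 at 7.38 and Ythdc2 at 1.43 lay clear below them. Among non-β-cells Ythdc1 came first, at 37.7 ± 7.42 CPM per kilobase at 4 weeks, but its samples overlapped those of Alkbh5 at 32.7 ± 4.39. The rank of Ythdc1 and Fto depended on the length used, because all their annotated exons together span 13651 and 13031 bases against 3269 and 4707 in the longest coding transcript. With the exon union, Alkbh5, Ythdf1 and Ythdf3 led in all 4 groups.

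**Figure D1:**
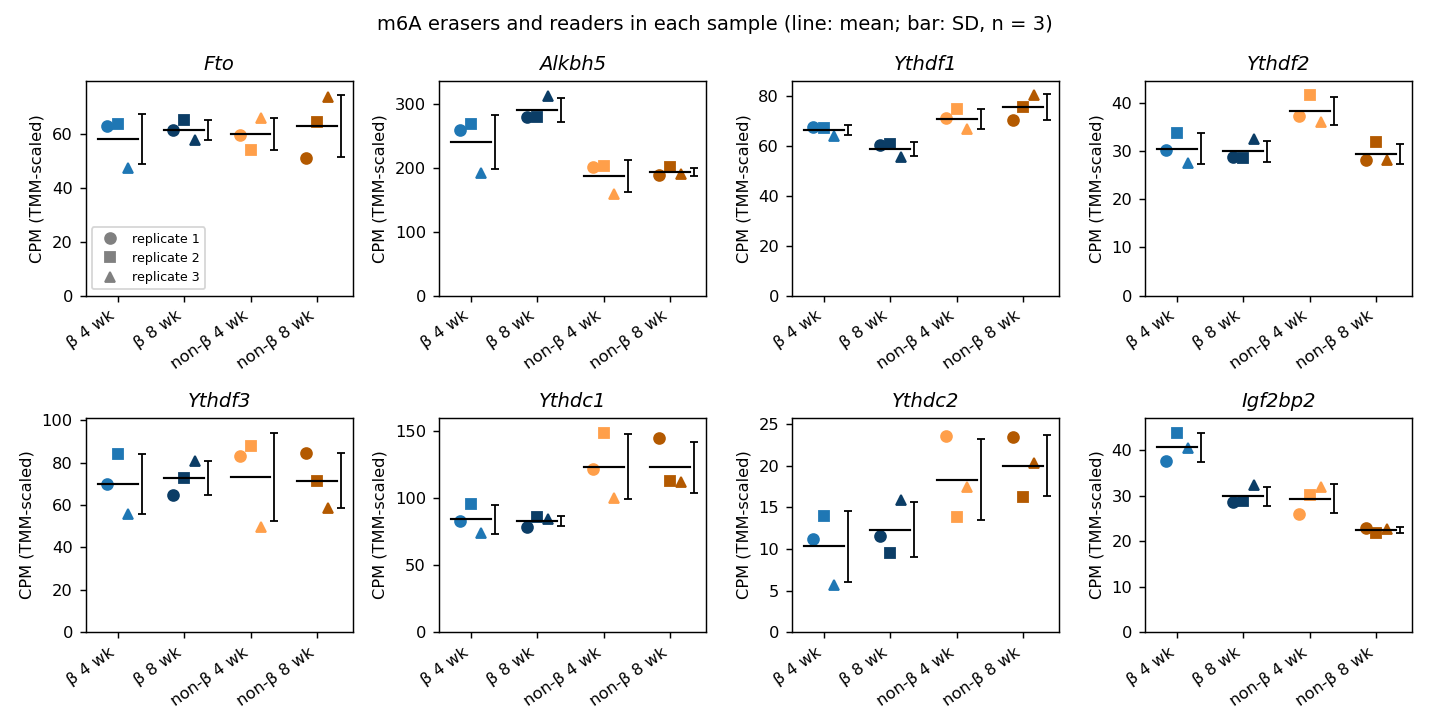
Level of each tested m6A eraser and reader in CPM (linear axis from 0) in the 12 samples, by group. Points are replicates 1 to 3 (circle, square, triangle), lines are means and bars are SD (n = 3). The 8-week points of Igf2bp2 lie below the 4-week points in both fractions, β-cells lie higher for Alkbh5, apart from the triangle at 4 weeks, and lower for Ythdc1, and the triangles at 4 weeks were often the lowest points.

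The first question was whether the erasers and readers changed between 4 and 8 weeks, when leukocyte infiltration of NOD islets builds up. In β-cells, Igf2bp2 fell, and 7 of the 8 tested members passed the test in neither direction. This was 12.5% of the members, against 17.9% of all tested genes, made up of 8.59% higher and 9.35% lower (limma-voom, Benjamini-Hochberg adjusted p under 0.05, all 12 samples in the model). In the non-β fraction, Ythdf2 fell and 7 of 8 did not pass, again 12.5%, against 16.4% of all tested genes, made up of 11.6% higher and 4.8% lower. No member rose with age in either fraction. The median log2 change over the 8 members was 0.03 in β-cells and 0.03 in the non-β fraction, and over all tested genes it was 0.02 and 0.01. A lower level of a transcript in sorted bulk cells may mean fewer cells that carry it or less RNA in each, and these cannot be told apart.

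Igf2bp2 encodes a reader that protects bound messages from decay, and variants near its human counterpart are associated with type 2 diabetes. In β-cells at 4 weeks its levels were 37.6, 43.8 and 40.5 CPM, and at 8 weeks 28.6, 28.8 and 32.3 CPM. All 3 younger samples were above all 3 older ones. It fell by 0.45 on the log2 scale, to 0.734 of the 4-week level (SE 0.112, 95% confidence interval -0.687 to -0.203, limma-voom adjusted p = 0.0157). Non-β-cells gave 25.9, 30.2 and 32.0 CPM at 4 weeks and 22.9, 21.7 and 22.7 CPM at 8 weeks. These groups did not overlap either, but the log2 difference of -0.37 (SE 0.125) missed the threshold (limma-voom adjusted p = 0.0605). The difference between the age changes of the 2 fractions, taken as an interaction, was -0.07 on the log2 scale with a 95% interval of -0.435 to 0.291 (limma-voom adjusted p = 0.871). The call in β-cells was lost without β-cell replicate 2 at 4 weeks (adjusted p = 0.0582) and without β-cell replicate 1 or 2 at 8 weeks (0.0647 and 0.0680), with a range of 0.00176 to 0.0680 over 16 alternative fits. The value in the non-β fraction passed under edgeR (adjusted p = 0.0396), under DESeq2 (0.0294), with total counts as the scaling (0.0375) and without non-β-cell replicate 1 at 4 weeks (0.0305), and ranged up to 0.168. Igf2bp2 counts were not whole in 12 of 12 samples, so some of its reads had been divided with other genes.

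The members that passed an age test are shown with the 300 bases around their annotated start, mostly upstream, from RefSeq on GRCm38.p6. Both lie on the minus strand and are written 5′ to 3′ along the gene. Capitals mark the GC box GGGCGG, the letters bound by Sp1-type factors, on either strand.
Igf2bp2, chr16:22163250-22163549: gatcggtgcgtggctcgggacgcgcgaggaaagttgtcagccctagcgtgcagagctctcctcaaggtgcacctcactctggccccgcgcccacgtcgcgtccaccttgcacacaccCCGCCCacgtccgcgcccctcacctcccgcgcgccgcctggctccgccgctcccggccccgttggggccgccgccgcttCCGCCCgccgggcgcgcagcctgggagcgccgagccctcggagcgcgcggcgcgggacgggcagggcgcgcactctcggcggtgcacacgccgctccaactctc
Ythdf2, chr4:132212207-132212506: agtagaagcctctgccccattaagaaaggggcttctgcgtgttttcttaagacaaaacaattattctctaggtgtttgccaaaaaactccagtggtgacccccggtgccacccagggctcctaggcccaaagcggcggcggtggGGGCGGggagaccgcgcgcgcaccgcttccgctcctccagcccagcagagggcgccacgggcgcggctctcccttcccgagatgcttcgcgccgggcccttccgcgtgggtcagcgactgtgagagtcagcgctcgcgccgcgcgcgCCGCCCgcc
The Igf2bp2 window held 47 CpG dinucleotides and was 76.7% G and C, and the Ythdf2 window held 32 and was 66.3%, against medians of 7 and 52.7% over 32851 promoters of the same length. Each held 2 GC boxes, which 35.7% of all promoters hold at least once, and neither held CCAAT (in 37.4% of all, either strand) or TATAAA (in 13.6%). Of the 10 members, 7 matched the promoter table. Their CpG counts ran from 18 in Alkbh5 to 47 in Igf2bp2, and the Alkbh5 window lay away from the start that GENCODE gives. The core of the interferon-stimulated response element, searched on both strands, occurred in the Igf2bp3 window alone (in 3.44% of all promoters), and the STAT palindrome in the Fto window alone (in 8.30%).

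Ythdf2 encodes the reader that recruits the CCR4-NOT deadenylase to marked messages. Non-β-cells had it at 37.2, 41.7 and 36.1 CPM at 4 weeks and at 28.2, 31.8 and 28.2 CPM at 8 weeks. The older samples were all below the younger ones. It fell by 0.39 on the log2 scale, to 0.764 of the 4-week level (SE 0.119, 95% interval -0.647 to -0.132, limma-voom adjusted p = 0.0404). In β-cells Ythdf2 stood at 30.2, 33.8 and 27.5 CPM in the younger samples and 28.9, 28.5 and 32.5 CPM in the older, and the ages overlapped (log2 difference -0.03, SE 0.117, limma-voom adjusted p = 0.901). The interaction was 0.36 on the log2 scale with a 95% interval of 0.001 to 0.724. Its limma-voom p was 0.0496 before adjustment and 0.260 after, so a difference in age change between the fractions was not established.

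The Ythdf2 call in the non-β fraction was not stable. Of the 6 fits that left out 1 of the compared samples, only the fit without non-β-cell replicate 3 at 4 weeks kept it. The adjusted p was 0.0618 and 0.0973 without replicates 1 and 2 at 4 weeks, and 0.117, 0.0610 and 0.138 without replicates 1, 2 and 3 at 8 weeks, while the log2 change stayed between -0.44 and -0.35. Blocking on the replicate number gave an adjusted p of 0.0832, with no filter on low counts 0.0749 and with only the non-β-cell samples in the model 0.0556, in a range of 0.0172 to 0.138 over 16 alternative fits. For the age tests that block joins 4-week and 8-week pools of the same number, between which the labels state no link. Markers of other cell types moved with age in the same fraction. The summed level of 9 endothelial markers went from between 50.0 and 95.7 CPM to between 395.4 and 1075 CPM in the non-β fraction, and that of 9 mesenchymal markers from between 107.3 and 308.4 to between 696.7 and 1086 CPM, with none of them at 0 at either age. The part of these cells in the Ythdf2 and Igf2bp2 values was not tested. In β-cells the endothelial sum lay between 6.98 and 16.4 CPM, while the sum of 7 alpha-cell markers went from between 5631 and 9410 CPM to between 1522 and 2576 CPM, and their part in the fall of Igf2bp2 was not tested. Acinar markers (12 genes) also summed higher in the older samples, at 537.1 to 1088 against 132.3 to 260.8 CPM in β-cells and at 276.6 to 946.1 against 82.8 to 168.8 CPM in the other fraction. Of 16 leukocyte markers, Nkg7 was among those at 0 in all 4 groups, and the sum in β-cells went from between 52.3 and 53.5 CPM to between 70.3 and 77.9 CPM, of which Cd68 made up 48.8 and 69.6 CPM on average. Duct markers (7 genes) went in sum from between 864.8 and 1190 to between 1685 and 1809 CPM in β-cells, and from between 629.2 and 820.5 to between 1996 and 2218 CPM in the other fraction. In β-cells the mesenchymal sum went from between 4.34 and 15.7 to between 26.6 and 54.7 CPM, and that of 8 β-cell markers from between 32500 and 58950 to between 88630 and 93470 CPM. The part of all these markers was not tested either.

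Other genes followed nearly the same course over the samples. The likeness of a gene was measured as the root mean square difference between its log2 CPM over the 12 samples and that of the member, each centred on its own mean, among 10174 genes. Closest to Ythdf2 were Twsg1 (0.0860), Tmem263 (0.0900) and Rad21 (0.0950), where the median gene was at 0.385. Rad21, a cohesin subunit, averaged 190.8 and 185.6 CPM in β-cells at 4 and 8 weeks and 219.1 and 177.9 CPM in the non-β fraction. Closest to Igf2bp2 were Ppm1a (0.0980), Tmem50b (0.0990) and Wdr43 (0.103), against a median of 0.396. Ppm1a, which encodes a protein phosphatase, averaged 171.0 and 126.3 CPM in β-cells and 128.7 and 104.9 CPM in the non-β fraction at the same ages.

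Of the erasers, Alkbh5 was 258.4, 268.5 and 191.1 CPM in the younger β-cells and 279.1, 278.8 and 311.6 CPM in the older ones. The 8-week samples were all above the 4-week samples, and replicate 3 at 4 weeks lay well below the other 4-week samples. The log2 difference of 0.29 (SE 0.136, 95% interval -0.004 to 0.585) did not pass (limma-voom adjusted p = 0.167), and it was 0.13 without the samples numbered 3 at 4 weeks. For non-β-cells the difference was 0.06 (SE 0.137). Fto, the first m6A demethylase described and long known from human obesity genetics, gave 63.0, 63.7 and 47.2 CPM in the younger and 61.6, 65.3 and 57.6 CPM in the older β-cells. Its log2 age difference was 0.10 (95% interval -0.231 to 0.424) in β-cells and 0.06 (-0.276 to 0.389) in the non-β fraction, where it gave 59.5, 54.1 and 65.9 CPM and then 50.9, 64.4 and 73.7 CPM. The ages overlapped in both fractions, and changes within these intervals were not excluded with 3 replicates.

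Among the other readers, Ythdf1 came closest to a change with age in β-cells. It stood at 67.7, 67.3 and 63.9 CPM at 4 weeks and at 60.4, 60.6 and 55.5 CPM at 8 weeks, without overlap, but the log2 difference of -0.17 (SE 0.0950) did not pass (limma-voom adjusted p = 0.235). It passed only with sample quality weights (adjusted p = 0.0349, in a range up to 0.430). The age differences of Ythdf3 and Ythdc1 lay between -0.02 and 0.07 on the log2 scale in the 2 fractions, and their 95% intervals between -0.48 and 0.53. Ythdc2, the least abundant member tested at 123 to 616 counts per sample, gave 0.30 in β-cells (95% interval -0.405 to 1.01) and 0.16 in the non-β fraction (-0.449 to 0.762). In both fractions the signs of Fto, Ythdf3, Ythdc1 and Ythdc2 turned in at least 1 of the 16 alternative fits.

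**Figure D2:**
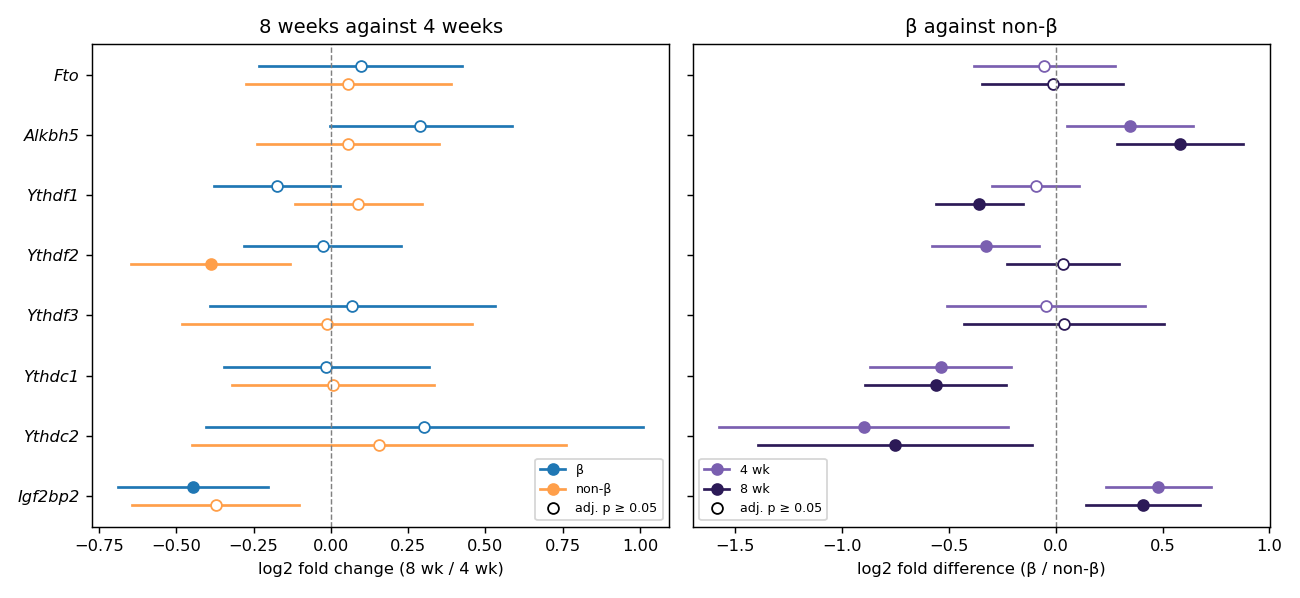
Log2 fold differences of the 8 tested members with 95% confidence intervals from limma-voom, between ages (left) and between fractions (right). Filled points passed an adjusted p of 0.05. Igf2bp2 in β-cells and Ythdf2 in the non-β fraction are the filled points on the left, and 5 members are filled at each age on the right.

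The second question was how the fractions differ. At 4 weeks 5 of the 8 tested members differed between the fractions, or 62.5%, against 48.5% of all tested genes, with 24.9% higher and 23.7% lower in β-cells. Alkbh5 and Igf2bp2 were higher in β-cells, and Ythdf2, Ythdc1 and Ythdc2 were lower. At 8 weeks it was again 5 of 8, or 62.5%, against 49.2% of all tested genes (23.6% higher and 25.6% lower), with Alkbh5 and Igf2bp2 higher in β-cells and Ythdf1, Ythdc1 and Ythdc2 lower. The non-β-cell fraction is a mixture in which alpha-cell markers summed to between 106100 and 135700 CPM and markers of delta, PP and epsilon cells to between 10870 and 16740 CPM, so the comparison does not set β-cells against a single cell type. Same-numbered samples of the fractions deviated together at 4 weeks, and with the number as a block the same 5 members passed.

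Igf2bp2 and Alkbh5 were the members higher in β-cells. Igf2bp2 was 0.48 higher on the log2 scale at 4 weeks, or 1.40-fold (SE 0.113, limma-voom adjusted p = 0.00375), and 0.41 higher at 8 weeks (SE 0.124, adjusted p = 0.0150), and the fractions did not overlap at either age. The 4-week value passed in all 16 alternative fits. The 8-week value did not pass without β-cell replicate 3 (adjusted p = 0.0549, the largest of a range that began at 0.00386). Alkbh5 in the non-β fraction gave 201.0, 202.3 and 158.1 CPM at 4 weeks and 188.1, 201.0 and 190.7 CPM at 8 weeks. All 8-week β-cell samples were above all 8-week non-β-cell samples, by 0.58 on the log2 scale or 1.5-fold (SE 0.136, limma-voom adjusted p = 0.00324), and this passed in all 16 alternative fits. At 4 weeks β-cell replicate 3 fell within the range of the non-β-cells, and the log2 difference of 0.35 (SE 0.136) passed narrowly (adjusted p = 0.0496). That call was lost in 8 of 16 alternative fits. Among these were the fits without β-cell replicate 1 (adjusted p = 0.132) or 2 (0.147) and without non-β-cell replicate 1 (0.0551), 2 (0.0521) or 3 (0.166), within a range of 0.00121 to 0.166. The interaction for Alkbh5 was 0.24 with a 95% interval of -0.181 to 0.652 (adjusted p = 0.569), so the difference was not shown to grow with age.

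Fto did not follow Alkbh5. Its log2 difference between fractions was -0.05 at 4 weeks (95% interval -0.384 to 0.276) and -0.01 at 8 weeks (-0.344 to 0.316), with overlap at both ages. The ratio of the erasers within a sample does not depend on how libraries are scaled. The Fto count was 24.4%, 23.7% and 24.7% of the Alkbh5 count in β-cells at 4 weeks and 22.1%, 23.4% and 18.5% at 8 weeks. For non-β-cells it was 29.6%, 26.7% and 41.7% at 4 weeks and 27.1%, 32.0% and 38.6% at 8 weeks. Every β-cell sample lay below every non-β-cell sample. The log2 ratio in β-cells minus that in the non-β fraction was -0.40 at 4 weeks and -0.60 at 8 weeks, where 3 against 3 samples cannot give an exact p below 0.1. With fraction labels permuted within age the mean difference of -0.50 had an exact two-sided p of 0.00500, the smallest that the 400 arrangements allow. It stayed between -0.57 and -0.41 over 14 alternatives, with an exact p of at most 0.0313 when samples were paired by number. The estimated counts of Alkbh5 were not whole (to within 0.001) in 12 of 12 samples and those of Fto in 1, which marks reads that were divided with other genes.

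**Figure D3:**
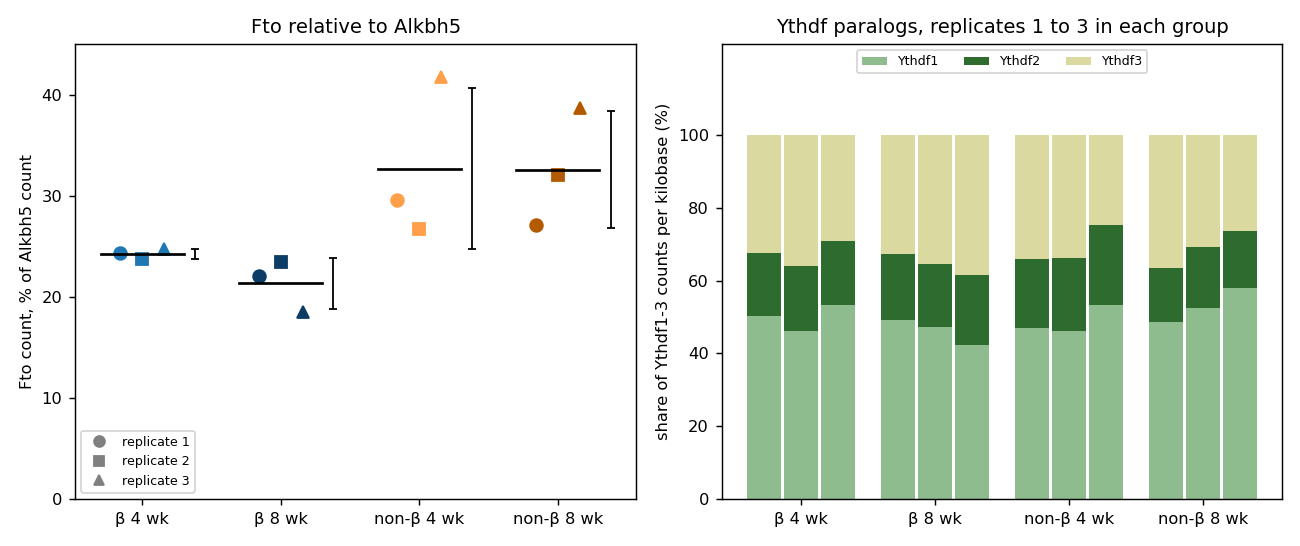
Left, Fto count as a percentage of the Alkbh5 count in each sample, with mean (line) and SD (bar), n = 3 per group. Right, the shares of Ythdf1, Ythdf2 and Ythdf3 in their summed counts per kilobase, a stacked bar per sample in the order of replicates 1 to 3. The 6 β-cell samples sit between 18.5% and 24.7% on the left and the 6 non-β-cell samples between 26.7% and 41.7%. On the right the Ythdf2 share in each non-β-cell sample at 8 weeks, from 15.1% to 17.0%, is below that in every other sample.

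The nuclear and helicase readers were the members lower in β-cells at both ages. Ythdc1, which directs splicing and nuclear export of marked transcripts, gave 83.1, 95.6 and 73.9 CPM in β-cells at 4 weeks and 121.6, 148.4 and 99.97 CPM in the non-β fraction. At 8 weeks it gave 78.6, 85.6 and 84.6 CPM in β-cells and 144.8, 112.4 and 111.6 CPM in the non-β fraction. No β-cell sample reached the lowest non-β-cell sample of its age. The log2 difference was -0.54 at 4 weeks (SE 0.152, limma-voom adjusted p = 0.0108) and -0.56 at 8 weeks (SE 0.153, adjusted p = 0.00826), or 0.689 and 0.678 of the non-β-cell level. The 8-week value passed in all 16 alternative fits, and the 4-week value in all but the fit without non-β-cell replicate 2 (log2 -0.39, adjusted p = 0.0544, range from 0.000348). A lincRNA, Gm43055, overlaps Ythdc1 on the same strand, and the Ythdc1 counts were not whole in 9 of 12 samples, so how the reads fall between the genes is uncertain.

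Ythdc2 gave 11.3, 14.03 and 5.64 CPM in β-cells at 4 weeks and 23.6, 13.9 and 17.5 CPM in the non-β fraction, and β-cell replicate 2 lay just above non-β-cell replicate 2. At 8 weeks it gave 11.5, 9.50 and 15.9 CPM in β-cells and 23.5, 16.2 and 20.3 CPM in the non-β fraction, where the groups came close without overlap. The log2 difference was -0.90 at 4 weeks (SE 0.313, limma-voom adjusted p = 0.0306) and -0.75 at 8 weeks (SE 0.296, adjusted p = 0.0498). The direction held in all 16 alternative fits at each age, but the calls did not. At 4 weeks the log2 value was -0.54 and the adjusted p 0.133 without the samples numbered 3, -0.52 and 0.132 without β-cell replicate 3 alone, and -0.67 and 0.136 without non-β-cell replicate 1. At 8 weeks the adjusted p was 0.105 and 0.188 without β-cell replicates 1 and 2, and 0.192 and 0.0956 without non-β-cell replicates 1 and 3, and 0.0801 with edgeR and 0.0522 with DESeq2. The adjusted p ranged from 0.00740 to 0.136 at 4 weeks and from 0.00762 to 0.192 at 8 weeks.

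The YTHDF paralogs differed from each other. Ythdf3 showed no called difference between fractions at either age (log2 -0.05 and 0.04, 95% intervals within -0.51 and 0.51), and its samples spread widely, from 49.7 to 87.7 CPM in the non-β fraction at 4 weeks. Ythdf1 in the non-β fraction gave 71.0, 74.7 and 66.8 CPM at 4 weeks, overlapping the β-cells, and 70.2, 75.8 and 80.5 CPM at 8 weeks, all above the β-cells. Its log2 difference was -0.09 at 4 weeks (adjusted p = 0.430) and -0.36 at 8 weeks (SE 0.0950, limma-voom adjusted p = 0.00728), and the latter missed the threshold only without β-cell replicate 3 (log2 -0.30, adjusted p = 0.0515, range from 0.000163). The interaction of -0.26 (95% interval -0.552 to 0.026, adjusted p = 0.314) did not pass. The β-cell samples of Ythdf2 were all below the non-β-cell samples at 4 weeks (log2 -0.33, SE 0.116, limma-voom adjusted p = 0.0319) and overlapped them at 8 weeks (log2 0.03, adjusted p = 0.836). That 4-week call was lost in 7 of 16 alternative fits. They included the fits without β-cell replicate 1 (adjusted p = 0.0648) or 3 (0.0979), without non-β-cell replicate 1 (0.0635) or 2 (0.120), and without both samples numbered 3 (0.0636), in a range of 0.0140 to 0.120.

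As a share of the summed Ythdf1, Ythdf2 and Ythdf3 counts per kilobase, Ythdf2 made up 18.9%, 19.9% and 22.2% in the non-β fraction at 4 weeks and 15.1%, 17.0% and 15.7% at 8 weeks. The older samples were all lower, and the mean difference of -4.44 percentage points has the smallest exact p that 3 against 3 samples allow (0.1). In β-cells the shares were 17.3%, 17.9% and 17.7% at 4 weeks and 18.1%, 17.1% and 19.1% at 8 weeks, which overlapped (0.507 points higher, exact p = 0.5). Over both fractions the mean age difference of -1.97 points had an exact two-sided permutation p of 0.0900.

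Igf2bp1 (chr11:95957163-96005940) and Igf2bp3 (chr6:49085223-49214957), oncofetal relatives of Igf2bp2 that are largely silent in adult tissue, were near or below the detection limit. Igf2bp1 had 15 counts in total over the 3 β-cell samples at 4 weeks, 10 at 8 weeks, and 1 and 8 in the non-β fraction. Igf2bp3 had 9.24, 0, 1 and 3.18 estimated counts in the same order, of which 8.2 came from β-cell replicate 3 at 4 weeks. The highest sample reached 0.416 CPM for Igf2bp1 and 0.378 CPM for Igf2bp3, where 3 counts, the limit that a count of 0 allows, correspond to 0.113 to 0.224 CPM depending on the sample. Counting error alone is covered by that limit. No comparison was made for either gene, and Igf2bp2 was the IGF2BP gene detected in all 4 groups above 1 CPM.

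Pathway and partner genes were taken from lists with 84 tested genes in all, called partner genes here. Besides partners of the readers, these lists held writers, other m6A-binding proteins, the Lin28, let-7 and Igf2bp axis, and other AlkB genes. With age in β-cells, 17 of the 84 passed the test (7 higher, 10 lower), or 20.2%, against 17.9% of all tested genes. Of the same 84, non-β-cells had 9 (3 higher, 6 lower), or 10.7%, against 16.4%. Without both 4-week samples numbered 3 the latter count was 19, or 22.6%, against 22.3% of all genes in that fit. Between fractions 48 of 84 passed at 4 weeks (57.1%, against 48.5%) and 40 of 84 at 8 weeks (47.6%, against 49.2%). These counts include Hmga2 at both ages and Lin28a at 8 weeks, which entered the test through the fraction where they are high.

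**Figure D4:**
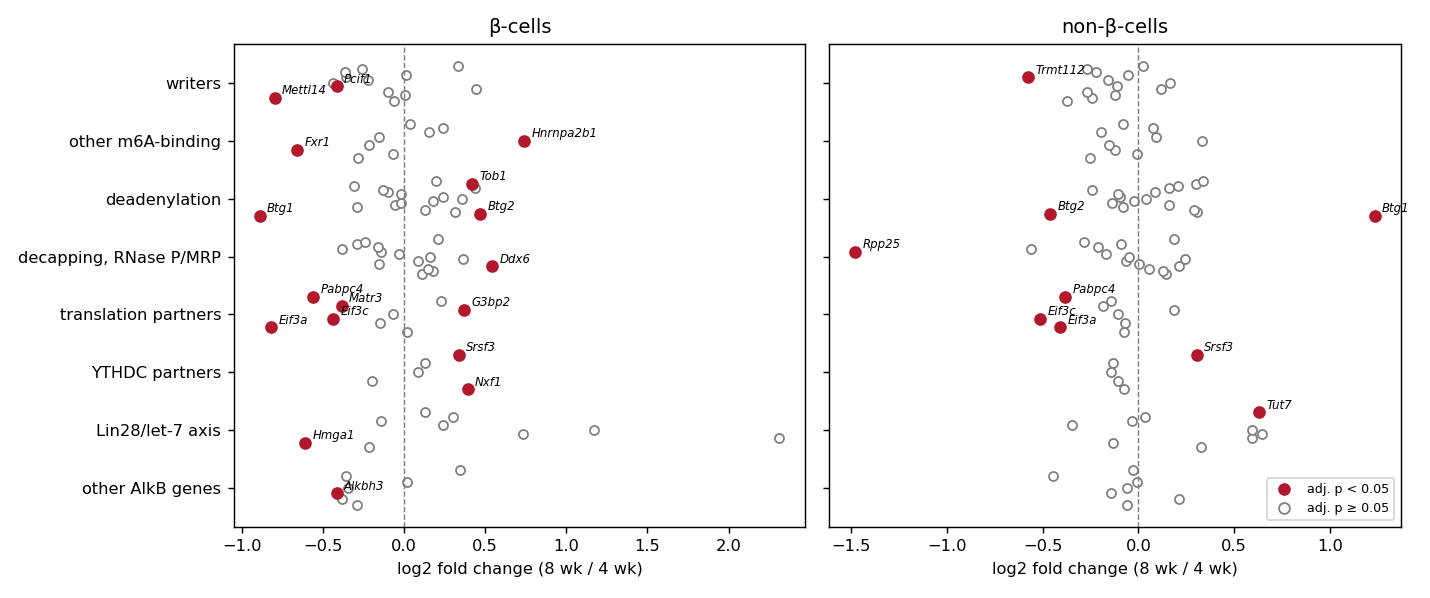
Log2 fold change from 4 to 8 weeks of the 84 tested m6A pathway and partner genes, by list, in β-cells (left) and non-β-cells (right). Filled points passed a limma-voom adjusted p of 0.05 and are labelled. Btg1 lies at -0.89 on the left and at 1.23 on the right, and Eif3a, Eif3c and Pabpc4 are filled and below 0 in both panels.

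Translation partners that passed with age were mostly lower at 8 weeks. Of 9 tested translation partners of the readers, 4 fell and 1 rose with age in β-cells, and 3 fell and none rose in the non-β fraction, with list medians of -0.15 and -0.14 on the log2 scale. Of all tested genes, 9.35% fell and 8.59% rose in β-cells, and 4.8% fell and 11.6% rose in the non-β fraction. Eif3a, a subunit of the initiation factor eIF3 that can engage m6A, went from 621.7 ± 69.1 to 351.2 ± 9.02 CPM in β-cells (SD, n = 3; log2 -0.82, SE 0.110, limma-voom adjusted p = 0.000283) and fell by 0.41 in the non-β fraction (adjusted p = 0.0211). Eif3c fell by 0.44 and 0.51, and Pabpc4, a poly(A)-binding protein, by 0.56 and 0.38, in each case the β-cells first. In the non-β fraction the Eif3a call was lost without replicate 1 or 2 at 4 weeks (adjusted p = 0.0532 and 0.0569) or 2 or 3 at 8 weeks (0.114 and 0.0798), in a range from 0.000696, and that of Pabpc4 without replicate 2 at 8 weeks (0.0545, range from 0.000194). The same list was higher in β-cells than in the non-β fraction in 8 of 9 genes at 4 weeks and 6 of 9 at 8 weeks, with none lower, against 24.9% and 23.6% of all tested genes called higher. Eif3c was 1.10 higher on the log2 scale at 4 weeks and 1.17 at 8 weeks, and Pabpc4 1.06 and 0.88 (limma-voom adjusted p at most 4.41e-06).

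The nuclear partners of YTHDC1 were lower in β-cells, as Ythdc1 itself was. All 5 tested of this list passed at 4 weeks and 4 of 5 at 8 weeks, with medians of -0.53 and -0.32, against 23.7% and 25.6% of all tested genes called lower in β-cells. Srsf3, the splicing factor that YTHDC1 recruits, averaged 82.0 ± 7.79 CPM in β-cells and 177.7 ± 7.42 CPM in the non-β fraction at 4 weeks (SD, n = 3; log2 -1.12, SE 0.0950, limma-voom adjusted p = 9.73e-07) and differed by -1.09 at 8 weeks. Nxf1, the mRNA export receptor, differed by -0.79 on the log2 scale at 4 weeks (adjusted p = 0.000139), and Safb by -0.56 at 8 weeks (adjusted p = 0.000669). With age Srsf3 and Nxf1 were higher in β-cells by 0.34 and 0.39, and Srsf3 in the non-β fraction by 0.31, at adjusted p between 0.0276 and 0.0409. Leaving out single samples ended these calls in 5 of 6 fits for Srsf3 in β-cells, all but that without replicate 3 at 4 weeks (adjusted p up to 0.134), and in all 6 fits for Nxf1 (up to 0.112) and for Srsf3 in the non-β fraction (up to 0.182).

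The 17 deadenylation genes held those of CCR4-NOT, which YTHDF2 recruits, besides Pan2, Pan3 and the BTG and TOB adaptors. Of the 17, 3 passed with age in β-cells (17.6%, against 17.9% of all tested genes) and 2 in the non-β fraction (against 16.4%). In the non-β fraction 5 passed in DESeq2 (against 18.3% of all genes in that fit). Without both 4-week samples numbered 3 it was 4 (against 22.3%). The 11 CCR4-NOT genes passed in neither fraction, while the antiproliferative adaptors Btg1 and Btg2 passed in both, in opposite directions. Btg1 fell from 188.5 ± 26.9 to 101.3 ± 6.5 CPM in β-cells (SD, n = 3; log2 -0.89, adjusted p = 0.000234) and rose from 111.3 ± 6.16 to 262.1 ± 25.2 CPM in the non-β fraction (log2 1.23, limma-voom adjusted p = 1.30e-05). Btg2 rose in β-cells by 0.47 on that scale (adjusted p = 0.0126) and fell by 0.46 on the log2 scale in the non-β fraction (adjusted p = 0.0151), and was lower in β-cells than in the non-β fraction, with log2 differences of -3.76 at 4 weeks and -2.83 at 8 weeks. The Btg2 calls were lost without β-cell replicate 1 at either age (adjusted p = 0.0595 and 0.0698) and without non-β-cell replicate 2 at 4 weeks (0.0552), and the Btg1 calls in no alternative fit. Alpha-cell markers in β-cells and endothelial and mesenchymal markers in the non-β fraction also changed with age. Their part in the Btg1 and Btg2 values was not tested. Tob1, a relative of the same family, rose by 0.42 in β-cells (adjusted p = 0.0267, up to 0.0919 without single samples, of which only the omission of replicate 3 at 4 weeks kept the call). Tob2 was lower in β-cells, with log2 differences of -1.60 and -1.74 at the 2 ages. Between fractions 8 of 17 were lower and 2 higher in β-cells at 4 weeks, against 23.7% and 24.9% of all tested genes, and 10 lower and 1 higher at 8 weeks, against 25.6% and 23.6%.

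Among decapping and RNase P/MRP genes, 1 of 15 passed with age in each fraction, against 17.9% and 16.4% of all genes. Ddx6, a decapping helicase, rose by 0.54 in β-cells (limma-voom adjusted p = 0.0450), a call that 10 of 16 alternative fits lost. Leaving out single β-cell samples ended it in 5 of 6 fits, all but that without replicate 2 at 4 weeks, and without replicate 3 at 4 weeks the log2 value was 0.33 (adjusted p = 0.128, in a range of 0.00686 to 0.181). Rpp25, an RNase P/MRP subunit, fell from 13.5 ± 4.94 to 4.84 ± 1.08 CPM in the non-β fraction (SD, n = 3; log2 -1.48, SE 0.319, limma-voom adjusted p = 0.00578), and was 1.54 higher in β-cells at 8 weeks (adjusted p = 0.00132). Without non-β-cell replicate 1 at 8 weeks the age change was -1.24 (adjusted p = 0.0512). Dcp2, the decapping enzyme, was lower in β-cells, with log2 differences of -0.97 at 4 weeks (adjusted p = 0.0123, and 0.0514 without β-cell replicate 3) and -0.87 at 8 weeks (0.0184, and 0.0646, 0.0517 and 0.0813 without β-cell replicate 2, β-cell replicate 3 or non-β-cell replicate 1). Ddx6 differed by -0.998 at 4 weeks (adjusted p = 0.000442).

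Of 13 writer genes, Mettl14 and Pcif1 fell with age in β-cells and Trmt112, an activator of METTL5, fell in the non-β fraction (15.4% and 7.69%, against 17.9% and 16.4% of all tested genes). The count in β-cells was 3 with edgeR and with DESeq2 (against 18.1% and 23% of all genes in those fits). It was 5 without both 4-week samples numbered 3 (against 22.7%). Mettl14 went from 14.3 ± 0.909 to 8.21 ± 0.418 CPM (SD, n = 3; log2 -0.80, SE 0.188, limma-voom adjusted p = 0.0115), and Pcif1, the cap-adjacent methyltransferase, fell by 0.41 (adjusted p = 0.0163, and 0.0737 without β-cell replicate 3 at 8 weeks). The Trmt112 value of -0.58 (adjusted p = 0.0326) was lost without replicate 3 at 4 weeks (0.107) or replicate 1 at 8 weeks (0.149). Mettl3, the catalytic subunit, gave -0.10 in β-cells (adjusted p = 0.626) and -0.27 in the non-β fraction (0.190), and Wtap, a regulatory subunit, -0.36 (0.0513) and -0.22 (0.272). Both genes were chosen after their values were seen. Between fractions 6 of 13 writers passed at 4 weeks (46.2%, against 48.5% of all tested genes) and 4 of 13 at 8 weeks (30.8%, against 49.2%). Zcchc4 and Cbll1 were lower in β-cells at 4 weeks (log2 -0.60 and -0.58), calls lost for Zcchc4 without replicate 1 of β-cells (adjusted p = 0.0519) or of non-β-cells (0.0552) and for Cbll1 without non-β-cell replicate 1 (0.0502). At 8 weeks Rbm15 was lower (log2 -1.002, adjusted p = 0.00533) and Mettl5 higher (log2 0.69, adjusted p = 0.0332), the latter call being kept in the fit without non-β-cell replicate 1 alone among the 6 that left out a sample (adjusted p up to 0.118).

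Other m6A-binding proteins included a rise and a fall in β-cells. Hnrnpa2b1, a nuclear protein proposed to act at m6A sites, rose from 130.7 ± 12.3 to 217.9 ± 6.53 CPM (SD, n = 3; log2 0.74, SE 0.110, limma-voom adjusted p = 0.000594) and was lower in β-cells than in the non-β fraction, with log2 differences of -1.24 and -0.83 at the 2 ages. Fxr1, of the fragile X family, fell from 172.5 ± 25.1 to 108.8 ± 7.45 CPM (log2 -0.66, adjusted p = 0.00162), and it was 0.82 higher in β-cells at 4 weeks. In the non-β fraction 0 of 9 passed with age in limma-voom, 0 in edgeR and 1 in DESeq2, against 16.4%, 14.1% and 18.3% of all genes. At an unadjusted limma-voom p under 0.05 there were 3. Between fractions 6 of 9 passed at 4 weeks and 2 of 9 at 8 weeks, against 48.5% and 49.2% of all tested genes. At 8 weeks Fxr2 was 0.33 higher in β-cells (adjusted p = 0.0102, and 0.0502 without β-cell replicate 1).

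Genes of the Lin28, let-7 and Igf2bp axis gave 1 of 9 with age in each fraction, against 17.9% and 16.4% of all tested genes. Hmga1, whose message IGF2BP proteins can bind, fell in β-cells, from 145.1 ± 8.83 to 95.1 ± 1.19 CPM (SD, n = 3, log2 -0.61, SE 0.132, limma-voom adjusted p = 0.00707). In the non-β fraction its log2 change was -0.13 (limma-voom adjusted p = 0.589). A link of Hmga1 to Igf2bp2 was not tested. Tut7, a uridylyl transferase, rose by 0.63 in the non-β fraction (adjusted p = 0.0174), which was lost without replicate 1 (0.0503) or 3 (0.0634) at 4 weeks or replicate 1 at 8 weeks (0.0878). Peg3, an imprinted gene, was lower in β-cells at 4 weeks (log2 -1.56, adjusted p = 0.00185). Hmga2 averaged 0.0170 and 0.179 CPM in β-cells at 4 and 8 weeks and 1.48 and 1.81 CPM in the non-β fraction and so entered the test through the fraction where it is high. Igf2 itself was low, at 2.85 to 5.51 CPM as group means, and Lin28b and H19 were below the filter. Lin28a averaged 1.47 and 3.32 CPM in β-cells at 4 and 8 weeks and 0.695 and 0.648 CPM in the non-β fraction, and it too entered through the fraction where it is high, so that no test is read for either gene. Of the 7 other AlkB genes tested, relatives of Alkbh5, 4 differed between fractions at 4 weeks (57.1%, against 48.5% of all tested genes). At 8 weeks it was 2 (28.6%, against 49.2%). With age 1 passed in β-cells (14.3%, against 17.9%) and 0 in the non-β fraction (against 16.4%). Among them Alkbh3 was higher in β-cells by 1.07 and 0.80 on the log2 scale at 4 and 8 weeks (limma-voom adjusted p = 2.04e-05 and 0.000327). Its fall of 0.41 with age in β-cells (adjusted p = 0.0292) was lost in 5 of the 6 fits without a single sample (up to 0.0890), all but that without replicate 1 at 4 weeks. Alkbh2 was 0.84 higher in β-cells at 4 weeks (adjusted p = 0.0387, lost without β-cell replicate 3 or non-β-cell replicate 1 or 2, at 0.125, 0.130 and 0.164), and Alkbh1 differed by -0.38 at 8 weeks (adjusted p = 0.0137, and 0.0634 without β-cell replicate 2).

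The last comparison asked whether age acted differently in the fractions. None of the 8 tested members passed the interaction test of limma-voom, against 5.13% of all tested genes (1.8% above and 3.33% below 0). At an unadjusted p under 0.05 there was 1, Ythdf2, and edgeR and DESeq2 called 0. Of the 84 partner genes 2 passed, Btg1 at -2.12 (SE 0.165, limma-voom adjusted p = 1.27e-05) and Btg2 at 0.93 (SE 0.162, adjusted p = 0.00487), and both passed in all 21 alternative fits. The part of a cell mixture that differs between the ages in these values was not tested. Of the 84, 3 passed with edgeR (3.57%, against 5.87% of all genes in that fit) and 5 with DESeq2 (5.95%, against 10%). Without both 4-week samples numbered 3 it was 8 (9.52%, against 9.51%), and with the replicate block 13 (15.5%, against 13.1%). The 95% interval of the interaction ran from -0.552 to 0.026 for Ythdf1, the narrowest, and from -0.785 to 1.08 for Ythdc2, the widest of the 8.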

How the data were processed

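RNA was sequenced from 12 samples with a strand-specific, low-input total RNA kit (single-end, reversely stranded reads). The authors trimmed with fastp, quantified mouse transcripts (Ensembl 98, GRCm38) with kallisto and summed them to genes with tximport; versions are not given in the sources used here. The deposited values are estimated counts, neither scaled nor filtered, which kallisto divides where genes share sequence. They were rounded to whole numbers. Genes above 1 CPM in at least 3 samples were kept (15598 of 52962), scaled by TMM (edgeR 4.0.16) and fitted by voom and limma 3.58.1 in R 4.3.3, following the study's methods: all 12 samples, a mean per group, no covariates, two-sided, Benjamini-Hochberg adjusted p under 0.05 over all tested genes. The fit was checked by simulation. Coordinates and lengths came from GENCODE M21, GRCm38.

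The members and partner lists were chosen with earlier results of these data known. All members were named, with up to 3 called partner genes per list for age and the interaction and 2 between fractions, and the 3 genes most like each member called with age. No 2 replicates agreed within sampling noise (chi-square per degree of freedom at least 7.79). Because pools differ in mice but preparation batches are not stated, p-values measure the spread between these pools. Replicate numbers come from the labels. At 4 weeks same-numbered β-cell and non-β-cell samples deviated together (correlations 0.29, 0.43 and 0.67 over 10280 genes with a mean log2 CPM of at least 3). That expression limit was set after the correlations over all tested genes had been seen. For the other comparisons the mean correlations were 0.06, 0.19 and 0.07. The main fit paired no samples, and the number entered only the alternatives that block on it or pair by it. Over all tested genes the 4-week correlations were 0.08, 0.13 and 0.31, the first of which is under 0.1. Alternatives were DESeq2 1.42.0, the quasi-likelihood test of edgeR, DESeq2 size factors, total counts, no filter, quality weights, only the groups compared, the replicate block, omission of both 4-week samples numbered 3, and omission of each sample.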

Additional observations from a re-analysis of the deposited data

Results flagged for a closer look

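The age change of Btg1, an adaptor of the CCR4-NOT deadenylase, was not equal in the fractions: β-cells minus non-β-cells gave -2.12 on the log2 scale (limma-voom interaction, adjusted p = 1.27e-05). Its mean level went from 188.5 to 101.3 CPM in β-cells and 111.3 to 262.1 CPM in non-β-cells. Its value stayed between -2.22 and -1.98 over 21 alternative fits. Btg2 differed the other way, by 0.93 (adjusted p = 0.00487), from 286.7 to 397.3 CPM in β-cells and from 3878 to 2819 CPM in non-β-cells, and stayed between 0.84 and 1.00. In the non-β fraction the endothelial marker sum rose from at most 95.7 to at least 395.4 CPM. The mesenchymal sum there rose from at most 308.4 to at least 696.7 CPM. In β-cells the alpha-cell marker sum fell from at least 5631 to at most 2576 CPM. The part of such cells in the Btg1 and Btg2 values was not tested. Neither gene is an eraser or a reader, and no eraser or reader passed the same test.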

How the results depend on the processing

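Of the 12 calls made for members, 3 were kept in every alternative fit (Igf2bp2 at 4 weeks and Alkbh5 and Ythdc1 at 8 weeks, between fractions), and no called member changed sign. Of 28 member values without a call, 2 passed in at least 1 alternative. The number of members called moved as follows. With age in β-cells 2 passed with quality weights, with 5382 genes in all, and 0 to 1 without single samples, with 1695 to 2491 genes in all. With age in non-β-cells 2 passed with edgeR, with DESeq2 and with total counts, and 0 with no filter, with only the groups compared and with the replicate block, and 0 to 1 without single samples. Between fractions at 4 weeks 3 passed with no filter, 2 with only the groups compared, 3 without both samples numbered 3, and 2 to 4 without single samples, and at 8 weeks 3 to 5 without single samples. Over all genes the interaction gave 800 calls, but 1562 with DESeq2, 2384 with quality weights, 2042 with the replicate block, 1468 without both 4-week samples numbered 3 and 455 to 979 without single samples. The replicate block changed no other call of a member. Of the 84 partner genes, 19 in place of 9 passed with age in non-β-cells without both samples numbered 3 (22.6%, against 22.3% of all genes in that fit). In the interaction 13 in place of 2 passed with the replicate block (15.5%, against 13.1%). Of 15 decapping and RNase P/MRP genes, 5 passed between fractions at 8 weeks (33.3%, against 49.2% of all tested genes). With the block 8 passed (against 58.3% of all genes), and 10 passed without both samples numbered 3 (against 59.8%). The causes of these shifts were not tested, and 3 samples a group limit what could be called.

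Signs that turned were all of values without a call. Ythdc2, which turned from 0.30 and 0.16 with age in β-cells and non-β-cells and 0.15 in the interaction, had the largest of them on the log2 scale, and the others lay within 0.1 of 0. With age in β-cells they were Fto (-0.016 with quality weights, -0.046 without both samples numbered 3), Ythdf3 (-0.035 and -0.085) and Ythdc2 (-0.024 and -0.087). With age in the non-β fraction they were Alkbh5 (-0.056 without both samples numbered 3), Ythdf3 (0.002 with DESeq2 size factors), Ythdc2 (-0.15 with quality weights) and Ythdc1 (-0.004 with edgeR, -0.039 with total counts and with only the groups compared, -0.11 with quality weights, -0.12 without both samples numbered 3). Between fractions they were Fto at 4 weeks (0.085 with quality weights, 0.16 without both samples numbered 3), Fto at 8 weeks (0 with no filter) and Ythdf2 at 8 weeks (-0.001 with DESeq2, -0.017 with quality weights). In the interaction they were Fto (-0.009, -0.17 and -0.17 with DESeq2, quality weights and without both samples numbered 3), Ythdc1 (0.043 and 0.009 with the last 2) and Ythdc2 (-0.23 without both samples numbered 3). Without single samples, the age values in β-cells ran from -0.046 to 0.15 for Fto, -0.11 to 0.032 for Ythdf2, -0.084 to 0.19 for Ythdf3, -0.11 to 0.06 for Ythdc1 and -0.084 to 0.59 for Ythdc2. In the non-β fraction they ran from -0.061 to 0.20 for Fto, -0.055 to 0.082 for Alkbh5, -0.26 to 0.14 for Ythdf3, -0.14 to 0.11 for Ythdc1 and -0.055 to 0.35 for Ythdc2. Between fractions they ran from -0.13 to 0.089 for Fto and -0.30 to 0.11 for Ythdf3 at 4 weeks, and from -0.17 to 0.11 for Fto, -0.007 to 0.071 for Ythdf2 and -0.11 to 0.19 for Ythdf3 at 8 weeks. In the interaction they ran from -0.12 to 0.16 for Fto, -0.07 to 0.33 for Ythdf3, -0.15 to 0.11 for Ythdc1, -0.24 to 0.44 for Ythdc2 and -0.15 to 0.03 for Igf2bp2.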
